A study of Arabidopsis thaliana with 18 samples.

Results

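Leaf RNA of the double mutant *fc2 pub4* was compared with that of wild type (wt) plants kept in constant (24 h) light throughout, with 3 libraries on either side, 6 of the 18 libraries of the series. The libraries were chosen by genotype and light condition, and no measured value entered the choice. The *fc2 pub4* plants carry *fc2-1*, a T-DNA insertion in the leader of *FC2* (AT2G30390), and *pub4-6*, a semi-dominant substitution that is predicted to alter the U-box encoded by *PUB4* (AT2G23140), and wt is the accession Col-0. Total leaf tissue of 19-day-old plants was taken 1 h after subjective dawn, and each library holds the pooled leaves of 3 plants. A further group, *fc2* with *fc2-1* alone, was grown under the same light (3 libraries). A second set of *fc2 pub4* and wt plants spent the last 2 days in cycling light with 16 h of light a day (3 libraries each). The *fc2* libraries show what *fc2-1* does alone, and as *pub4* alone was not analysed here, the difference of *fc2 pub4* from *fc2* shows *pub4-6* only in plants that also carry *fc2-1*.

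*FC2* encodes a plastid ferrochelatase, which inserts iron into protoporphyrin IX to make heme. When the enzyme is short, protoporphyrin can build up at dawn, and in light this pigment passes energy to oxygen and gives singlet oxygen, a reactive oxygen species that damages chloroplasts and also acts as a signal to the nucleus. Constant light is the permissive condition for *fc2*, since the burst of pigment after a dark period does not occur. *PUB4* encodes an E3 ubiquitin ligase, and *pub4* was found as a mutation that keeps *fc2* cells alive. The paper states that *fc2* in constant light still builds up a little protoporphyrin and singlet oxygen. The comparison therefore asks how the leaf transcriptome of the double mutant stood without a shift to cycling light, and not in the absence of all stress.

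Total counts were 31543172 to 35539708 in the *fc2 pub4* libraries and 27124449 to 30205043 in the wt libraries, and the 10 most abundant genes held 5.23 to 5.58% and 6.35 to 7.38% of them. The counts of replicates differed by far more than sampling noise (chi-square per gene of 9.77 or more), so each library counted as a replicate. The widest gap within a genotype, 41.6 per gene, lay between wt replicates 1 and 3. The 5 mesophyll markers were abundant in every library, while 8 of the 14 root markers and 3 of the 4 seed markers were at 0 in all *fc2 pub4* libraries (6 and 3 in wt). The p-values below measure the spread between pools of plants within one experiment.

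*FC2* itself was lower in *fc2 pub4*. Its levels, in CPM (read counts scaled to a common library size) on a scale common to all 18 libraries, were 54.5, 52.3 and 58.7 CPM in *fc2 pub4* and 34.6, 31.4 and 30.01 CPM in *fc2*, against 174, 153 and 131 CPM in wt (log2FC −1.47, SE 0.10, padj = 1.79e-04 against wt, edgeR quasi-likelihood test with Benjamini-Hochberg adjustment). Its 3 *fc2 pub4* libraries lay below all wt libraries and above all *fc2* libraries, and the direct comparison of *fc2 pub4* with *fc2* gave a log2FC of 0.79 (padj = 6.90e-04). *FC1*, the other ferrochelatase gene, stood at 55.3, 61.8 and 56.7 CPM in *fc2 pub4*, against 55.3, 60.3 and 55.3 CPM in wt (log2FC 0.02, padj = 0.897). Transcripts of *PUB4*, which a point mutation need not alter, stood at 24.6, 25.9 and 26.6 CPM in *fc2 pub4*, against 24.7, 26.9 and 27.4 CPM in wt (log2FC −0.04, padj = 0.828). Those of its relative *PUB2* stood at 13.2, 16.5 and 13.8 CPM in *fc2 pub4*, against 12.7, 14.1 and 13.7 CPM in wt (log2FC 0.10, padj = 0.662), and *PUB3* had a log2FC of −0.03 (padj = 0.855).

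The gene that stands directly upstream of *FC2* changed more than any other gene tested. *OFP17* (AT2G30395), a member of the OVATE family of transcriptional regulators, had 243, 235 and 240.2 CPM in *fc2 pub4* and 209, 169 and 226 CPM in *fc2*, against 1.4, 1.11 and 1.02 CPM in wt (log2FC 7.65, SE 0.10, padj = 1.33e-10). The libraries of both genotypes with the insertion lay far above all wt libraries, and *fc2 pub4* and *fc2* were not told apart by the test (log2FC 0.26, padj = 0.15). In the TAIR10.1 annotation *FC2* lies at chr2:12950954-12954148 and *OFP17* at chr2:12954174-12955288, both on the minus strand with 25 bases between the records. *OFP2*, the next gene on the far side of *OFP17*, had a log2FC of 0.56 (padj = 0.427).

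Apart from this locus the differences were few and mostly small. Of 19782 genes tested, 151 (0.763%) had an adjusted p (padj) under 0.01, 81 of them higher in *fc2 pub4* (0.409%) and 70 lower (0.354%). The median absolute log2FC of the 151 genes was 0.77, or 1.71-fold, and 95 of them had an absolute log2FC of 1 or less. With the cutoffs of the study, which add an absolute log2FC above 1.5, 21 genes were upregulated and 11 downregulated (DEGs, 32 genes, 0.162%). For all 151 genes the 3 *fc2 pub4* libraries lay on one side of the 3 wt libraries, while 2571 of all genes tested (13.0%) lay entirely above wt and 2503 (12.7%) entirely below. The log2FC of the median gene was 0.0049 and moved to 0.102 when libraries were scaled by their size alone, which turned the 81 higher and 70 lower genes into 187 and 45. The counts rest on all libraries, as the 32 DEGs became 12 without *fc2 pub4* replicate 3 and 17 and 16 without wt replicates 1 and 2. DESeq2, run as a second test, called 1.94% of genes higher and 2.52% lower at a padj under 0.01, and its counts are given beside those of edgeR for the lists.

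**Figure D1:**
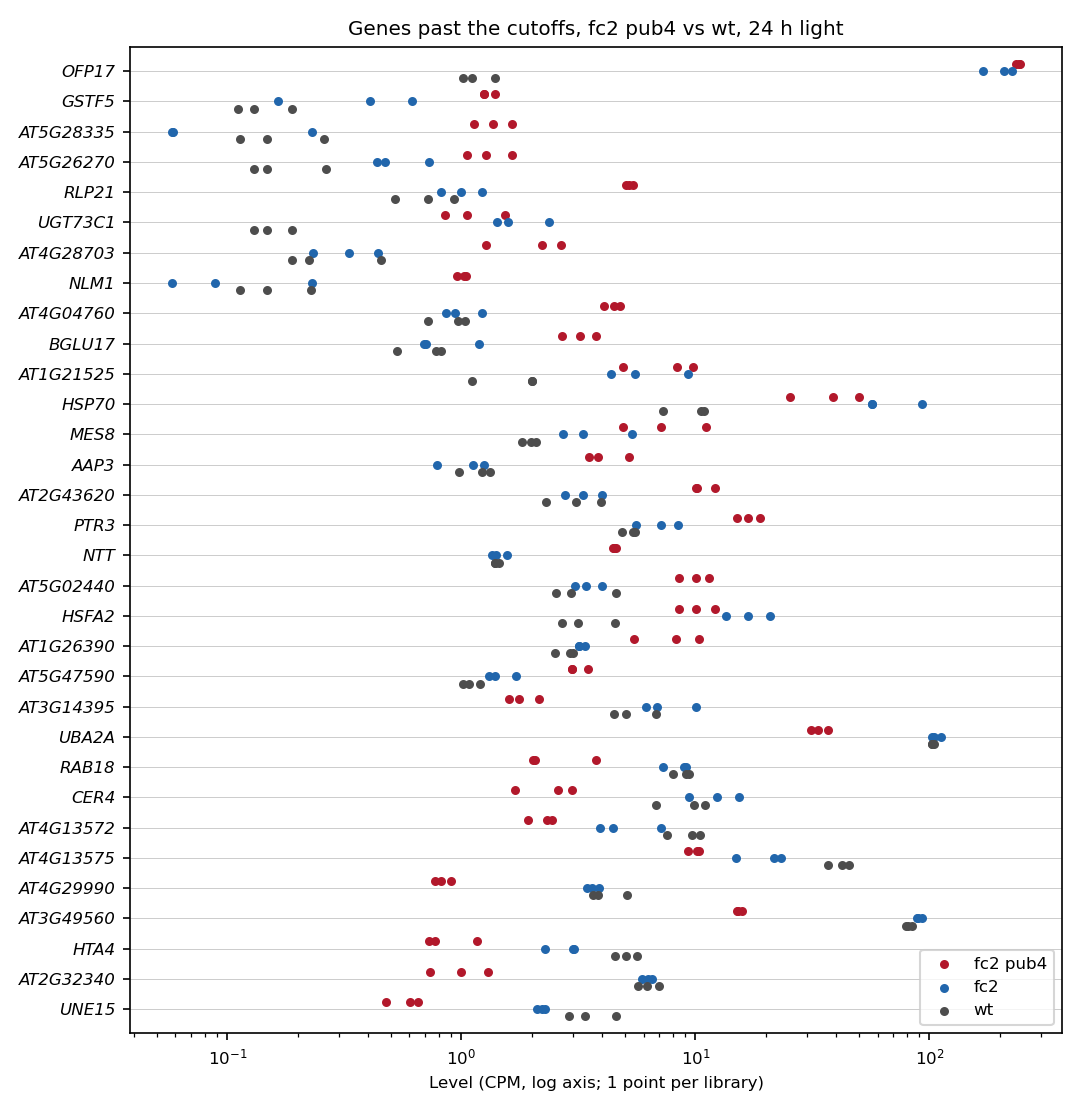
Levels of the 32 DEGs in CPM on a log axis, 1 point per library, with *fc2 pub4* above *fc2* above wt in each row. For every gene the red *fc2 pub4* points and the grey wt points do not overlap, and for most genes the blue *fc2* points sit with wt, with *OFP17*, *UGT73C1*, *HSP70*, *HSFA2* and AT1G21525 among the exceptions.

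The decrease with the lowest padj belonged to a gene of a protein translocase family, a family name that does not tell in which organelle the protein acts. AT3G49560, annotated as a subunit of the Tim17/Tim22/Tim23 family of inner membrane translocases, stood at 15.1, 15.3 and 15.8 CPM in *fc2 pub4* and 89.6, 92.7 and 88.8 CPM in *fc2*, against 79, 84.4 and 80.8 CPM in wt. It fell by 2.41 on the log2 scale (log2FC −2.41, SE 0.06, padj = 6.14e-08), with the 3 libraries of each genotype within a narrow range, and *fc2* had a log2FC of 0.15 against wt. *UBA2A*, which encodes an RNA-binding protein of the nucleus, also stood apart from both other genotypes, with 36.8, 31.1 and 33.4 CPM in *fc2 pub4* and 103, 104 and 112 CPM in *fc2*, against 103, 103 and 104 CPM in wt (log2FC −1.62, SE 0.07, padj = 5.35e-06). AT2G32340 (TraB family) and AT4G29990 (a leucine-rich repeat receptor kinase) were lower on a smaller base. AT2G32340 had 0.737, 0.997 and 1.3 CPM in *fc2 pub4* and 6.5, 6.27 and 5.88 CPM in *fc2*, against 5.68, 6.96 and 6.23 CPM in wt (log2FC −2.63, padj = 5.06e-04). AT4G29990 had 0.907, 0.816 and 0.768 CPM in *fc2 pub4* and 3.85, 3.6 and 3.44 CPM in *fc2*, against 3.83, 3.67 and 5.1 CPM in wt (log2FC −2.34, padj = 0.00104). In these 4 genes no *fc2 pub4* library came near a library of wt or *fc2*.

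Another 4 of the 11 downregulated DEGs are neighbours on chromosome 4. *UNE15*, a late embryogenesis abundant family gene, *HTA4*, which encodes a histone H2A, and the uncharacterized AT4G13572 and AT4G13575 lie within 14204 bases (chr4:7879558-7893761, TAIR10.1). *HTA4* had 1.16, 0.725 and 0.768 CPM in *fc2 pub4* and 3.0, 2.28 and 3.03 CPM in *fc2*, against 4.54, 5.63 and 5.03 CPM in wt (log2FC −2.51, padj = 7.93e-04). AT4G13575, the most abundant of them, had 10.2, 10.3 and 9.33 CPM in *fc2 pub4* and 23.2, 14.9 and 21.6 CPM in *fc2*, against 36.7, 42.4 and 45.1 CPM in wt (log2FC −2.06, padj = 5.35e-06). The log2FC was −2.64 for *UNE15* and −2.05 for AT4G13572, and all 4 genes were also below wt in *fc2*, by less (log2FC −0.71 to −1.05 against the same wt libraries). The next gene tested on the near side, AT4G13550, had a log2FC of −0.15 (padj = 0.269). The exons of *UNE15*, *HTA4* and AT4G13575 overlap other genes over 4.9 to 8.6% of their length, and 7.2% of the 50-base stretches of AT4G13575 occur elsewhere in the genome.

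The rest of the downregulated DEGs included *CER4*, of wax synthesis, and *RAB18*, of the response to drying, as single genes. *WSD1* and *MYB16*, also given here, did not reach the cutoff on fold. *CER4* encodes the reductase that makes the primary alcohols of cuticular wax, and *WSD1* the synthase that joins such alcohols to fatty acids as wax esters. *CER4* had 2.98, 1.69 and 2.6 CPM in *fc2 pub4* and 9.38, 12.4 and 15.3 CPM in *fc2*, against 9.87, 6.78 and 11 CPM in wt (log2FC −1.93, SE 0.23, padj = 0.00359). *WSD1* had 6.83, 8.71 and 7.05 CPM in *fc2 pub4* and 17.44, 18.1 and 24.2 CPM in *fc2*, against 19.5, 14.8 and 15.2 CPM in wt (log2FC −1.14, SE 0.14, padj = 0.00370). In both genes the *fc2* libraries overlapped with or exceeded those of wt, and *fc2 pub4* was lower than *fc2* (log2FC −2.34 and −1.4, padj = 6.61e-04 and 0.00101). Of 19 wax genes tested, these 2 were lower and 0 higher at a padj under 0.01 (7 lower with DESeq2). At an unadjusted p under 0.05, which 10.8% of all genes passed as lower and 10% as higher, 10 wax genes were lower and 0 higher. *CER1*, of alkane synthesis, was among the 10 at 93.2, 79.9 and 89.97 CPM in *fc2 pub4*, against 148, 119.7 and 119 CPM in wt (log2FC −0.56, padj = 0.0151), and the median log2FC of the 19 genes was −0.21. *MYB16*, a MYB factor of cuticle formation, fell slightly (log2FC −0.44, padj = 0.00774).

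*RAB18*, a dehydrin induced by abscisic acid, had 3.77, 2.06 and 2.01 CPM in *fc2 pub4* and 8.97, 9.07 and 7.25 CPM in *fc2*, against 9.15, 8.04 and 9.37 CPM in wt (log2FC −1.76, SE 0.23, padj = 0.00453). It was the 1 gene of 17 in the dehydration list at a padj under 0.01 (1 with DESeq2 too), and 4 of the 17 were lower and 1 higher at an unadjusted p under 0.05 (median log2FC −0.29). The call of *RAB18* passed in 1 of the 6 fits without a library (padj of up to 0.0317). *COR15A*, a cold- and drought-induced chloroplast protein, stood at 12.7, 4.35 and 5.62 CPM in *fc2 pub4*, against 18, 14.1 and 15.2 CPM in wt (padj = 0.0879) and *RD22* at 321, 299 and 285 CPM in *fc2 pub4*, against 349.6, 387 and 351 CPM in wt (padj = 0.0706). In either gene all *fc2 pub4* libraries lay below all wt libraries, as in 3 of the 17 genes of the list and in 12.7% of all genes tested. The last of the 11 downregulated DEGs, AT3G14395, is uncharacterized (log2FC −1.57).

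Of the 21 upregulated DEGs, 5 belong to the defence list. Plants sense microbes with receptors at the cell surface, and the response includes receptor kinases, WRKY factors, camalexin synthesis, chitinases and transporters. Of 31 defence genes tested, 6 rose and 0 fell (13 and 0 with DESeq2), 16 were higher and 0 lower at an unadjusted p under 0.05, and the median log2FC was 0.48. The list's 6 genes for secreted proteins and transport include some that the study itself had picked from these libraries, and they hold 4 of the 6, so their direction is not independent evidence. Without *fc2 pub4* replicate 1 the median was 0.71 and without *fc2 pub4* replicate 2 it was 0.35.

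*FRK1*, a receptor kinase widely used as a marker of the response to flagellin, had 7.14, 7.56 and 7.68 CPM in *fc2 pub4* and 4.71, 5.58 and 5.94 CPM in *fc2*, against 3.18, 3.33 and 3.78 CPM in wt (log2FC 1.12, SE 0.13, padj = 0.00327). The *fc2* libraries lay between the other groups. AT1G26390, a berberine bridge enzyme family gene of the indolic defence group, had 5.47, 10.4 and 8.29 CPM in *fc2 pub4* and 3.18, 3.17 and 3.38 CPM in *fc2*, against 2.5, 3.0 and 2.91 CPM in wt (log2FC 1.52, SE 0.23, padj = 0.00886). Its call passed in 1 of the 6 fits without a library (padj of up to 0.0540). The camalexin gene *PAD3* stood at 25.7, 49.3 and 33 CPM in *fc2 pub4*, against 23, 21.3 and 26.8 CPM in wt (padj = 0.123), with 1 *fc2 pub4* library overlapping wt. *PTR3*, a transporter of small peptides, had 18.9, 15.1 and 16.8 CPM in *fc2 pub4* and 8.44, 7.16 and 5.56 CPM in *fc2*, against 5.42, 5.52 and 4.84 CPM in wt (log2FC 1.68, SE 0.12, padj = 1.96e-04). *AAP3*, an amino acid permease, had 5.19, 3.51 and 3.84 CPM in *fc2 pub4* and 1.12, 1.25 and 0.787 CPM in *fc2*, against 0.974, 1.22 and 1.32 CPM in wt (log2FC 1.83, SE 0.23, padj = 0.00386). AT2G43620, a chitinase family gene, had 12.1, 10.04 and 10.2 CPM in *fc2 pub4* and 2.76, 3.99 and 3.29 CPM in *fc2*, against 2.3, 3.07 and 3.93 CPM in wt (log2FC 1.8, SE 0.18, padj = 0.00148). In the last 3 genes *fc2* stood near wt and *fc2 pub4* was apart from both. *NLM1*, an aquaporin-like channel of the NOD26 family, was the weakest of the 6 by count, with 37, 34 and 36 reads in *fc2 pub4* and 7, 4 and 3 reads in wt (log2FC 2.58, SE 0.39, padj = 0.00924), and its call was lost without any 1 of the 6 libraries. The receptors *FLS2* (log2FC −0.17, padj = 0.633) and *CERK1* (log2FC −0.10, padj = 0.466) and the oxidase *RBOHD* (log2FC 0.13, padj = 0.508) overlapped with wt.

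Outside the list, *RLP21*, a receptor-like protein, had 5.41, 5.05 and 5.22 CPM in *fc2 pub4* and 1.0, 1.22 and 0.816 CPM in *fc2*, against 0.519, 0.926 and 0.718 CPM in wt (log2FC 2.86, SE 0.22, padj = 3.09e-04), and AT4G28703, a cupin family gene, had 2.66, 1.27 and 2.2 CPM in *fc2 pub4* and 0.441, 0.33 and 0.233 CPM in *fc2*, against 0.454, 0.222 and 0.189 CPM in wt (log2FC 2.78, SE 0.42, padj = 0.00917). Both were several-fold above wt in each *fc2 pub4* library. The call of *RLP21* passed in all 6 fits without a library, and that of AT4G28703 in 1 of the 6 (padj of up to 0.0564). *BGLU17*, a beta-glucosidase, had 2.69, 3.75 and 3.21 CPM in *fc2 pub4*, against 0.779, 0.815 and 0.529 CPM in wt (log2FC 2.17), and AT4G04760, a sugar transporter-like protein of the major facilitator superfamily, had 4.76, 4.5 and 4.05 CPM in *fc2 pub4*, against 1.04, 0.963 and 0.718 CPM in wt (log2FC 2.28), although 5.3% of its exons overlap another gene. *MES8*, a methyl esterase, was more variable at 11.1, 4.93 and 7.13 CPM in *fc2 pub4*, against 1.98, 2.07 and 1.81 CPM in wt (log2FC 1.98). AT5G28335 (log2FC 2.93) is uncertain, as 63.6% of its 50-base stretches occur elsewhere in the genome. AT5G26270, AT1G21525 and AT5G02440 complete this group with log2FC of 2.86, 2.16 and 1.59. The calls of AT5G28335 and AT5G26270 were lost without any 1 of the 6 libraries (padj of up to 0.0431 and 0.0508).

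The promoters of these genes were read from the RefSeq table of the TAIR10.1 assembly, as the 250 bases before the annotated start of each gene, and searched on both strands for the W-box, taken as TTGACC or TTGACT, the sequence that WRKY factors bind. A match was found in 28.2% of the promoters of 19681 genes tested, in 40 of 80 promoters of genes that rose at a padj under 0.01 (50%) and in 15 of 70 of genes that fell (21.4%). In the defence list 19 of 31 promoters had a match. At least 2 matches were present in 6.08% of all promoters and in 11 of the 80. A match is a description of these letters and not evidence of binding. Of the 21 promoters of upregulated DEGs, 10 had a match (47.6%) and the rest had none. The 4 promoters below were taken from those with a match and show the range from 4 matches to 1. They belong to genes that rose and were not raised alike in *fc2*. The W-box letters are in capitals on either strand (AGTCAA and GGTCAA are the motif on the opposite strand).
AT4G28703 promoter, chr4:14165844-14166093, plus strand: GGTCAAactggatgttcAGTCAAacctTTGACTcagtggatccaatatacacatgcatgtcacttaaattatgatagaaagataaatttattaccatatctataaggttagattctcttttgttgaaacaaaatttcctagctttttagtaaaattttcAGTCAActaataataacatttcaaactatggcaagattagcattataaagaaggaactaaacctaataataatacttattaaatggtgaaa
AT2G43620 promoter, chr2:18095094-18095343, minus strand: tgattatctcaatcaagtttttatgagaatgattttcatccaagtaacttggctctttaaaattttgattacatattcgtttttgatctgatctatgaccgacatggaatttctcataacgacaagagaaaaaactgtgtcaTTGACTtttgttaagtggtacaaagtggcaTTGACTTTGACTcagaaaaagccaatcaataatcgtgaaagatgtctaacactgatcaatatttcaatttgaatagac
RLP21 promoter, chr2:10838044-10838293, plus strand: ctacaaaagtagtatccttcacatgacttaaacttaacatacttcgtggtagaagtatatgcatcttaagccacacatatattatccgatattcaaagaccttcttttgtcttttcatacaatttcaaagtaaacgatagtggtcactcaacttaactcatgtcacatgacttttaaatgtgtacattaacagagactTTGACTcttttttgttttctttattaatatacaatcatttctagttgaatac
PTR3 promoter, chr5:18679192-18679441, minus strand: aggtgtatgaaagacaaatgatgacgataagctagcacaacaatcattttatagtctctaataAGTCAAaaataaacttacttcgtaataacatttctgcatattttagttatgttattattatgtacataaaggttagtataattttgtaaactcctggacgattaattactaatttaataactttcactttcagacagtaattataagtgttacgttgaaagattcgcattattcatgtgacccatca
AT4G28703 has matches that start 250, 233, 223 and 91 bases before the gene, and AT2G43620 has them at 108, 78 and 72 bases. Those of *RLP21* and *PTR3* start at 52 and 187 bases.

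A factor and chaperones of the heat shock response rose in *fc2 pub4* against wt. Their levels lay below those of *fc2*, but no gene of the list passed the threshold between *fc2 pub4* and *fc2*. Heat shock factors switch on chaperones that refold or hold damaged proteins, and HSFA2 is a factor whose own gene is strongly induced by heat and oxidative stress. *HSFA2* had 8.47, 12.1 and 10.04 CPM in *fc2 pub4* and 20.7, 16.8 and 13.5 CPM in *fc2*, against 3.15, 4.52 and 2.68 CPM in wt (log2FC 1.56, SE 0.20, padj = 0.00486). *HSP70*, a cytosolic chaperone, had 25.3, 50.1 and 38.7 CPM in *fc2 pub4* and 92.7, 56.5 and 56.9 CPM in *fc2*, against 10.6, 10.9 and 7.29 CPM in wt (log2FC 1.98, SE 0.24, padj = 0.00338). *HSP90.1*, the heat-inducible cytosolic HSP90, had 44.7, 71.7 and 55.5 CPM in *fc2 pub4* and 126, 83.3 and 73.9 CPM in *fc2*, against 28.9, 28.5 and 25.7 CPM in wt (log2FC 1.05, SE 0.15, padj = 0.00655). Each of these 3 genes ran in the same order, with *fc2* highest and wt lowest, and no library of *fc2 pub4* overlapped with *fc2*. How many of all genes did not overlap between *fc2 pub4* and *fc2* was not counted. Between *fc2 pub4* and *fc2* the padj was 0.0326 for *HSFA2*, 0.0683 for *HSP70* and 0.0679 for *HSP90.1*. *Hop3*, a co-chaperone that links HSP70 to HSP90 and that was not in the list, had a log2FC of 1.03 (padj = 0.00504).

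Of 23 heat shock genes tested, 3 rose and 0 fell (4 and 0 with DESeq2), 13 were higher and 1 lower at an unadjusted p under 0.05, and the median log2FC was 0.50. It was 0.54 in *fc2* against the same wt libraries. Of 13 small heat shock proteins in the list, 8 passed the filter on low counts. Of these 8, 7 lay above all wt libraries, against 13.0% of all genes tested. Their median log2FC was 1.11 in *fc2 pub4* and 2.35 in *fc2*. The 3 libraries of a single genotype can be enough to pass the filter, so genes scarce in wt may enter only where a mutant is high. The count and the medians are thus not independent of the filter. None of the 8 had a padj under 0.01 with edgeR (1 higher with DESeq2). *HSP17.8* came closest at 2.07, 2.87 and 3.5 CPM in *fc2 pub4* and 8.85, 4.59 and 3.67 CPM in *fc2*, against 0.617, 0.926 and 0.945 CPM in wt (padj = 0.0114), and *HSP23.5*, targeted to mitochondria, had 5.38, 14.5 and 13.7 CPM in *fc2 pub4* and 27.8, 16.2 and 15 CPM in *fc2*, against 2.01, 5.0 and 1.47 CPM in wt (padj = 0.0374). AT5G47590, a further gene of the HSP20 family outside the list, rose with a log2FC of 1.5 (padj = 0.00523), a call that was lost without any 1 of the 6 libraries.

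The *HSFA2* promoter is shown because it is the 1 promoter among those of the 21 upregulated DEGs with a heat shock element, searched on both strands as GAA, TTC and GAA with 2 bases of any kind between neighbours and given in capitals. The element occurs in 0.412% of all promoters and in 5 of 23 of the list, and the promoter of *HSP70* has none in this window.
HSFA2 promoter, chr2:11135374-11135623, plus strand: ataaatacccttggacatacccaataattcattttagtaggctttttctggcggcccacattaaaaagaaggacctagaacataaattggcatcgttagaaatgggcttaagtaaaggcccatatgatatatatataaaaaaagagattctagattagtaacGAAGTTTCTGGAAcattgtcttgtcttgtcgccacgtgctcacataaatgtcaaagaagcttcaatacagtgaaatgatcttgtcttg
The match starts 88 bases before the annotated start of the gene.

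**Figure D2:**
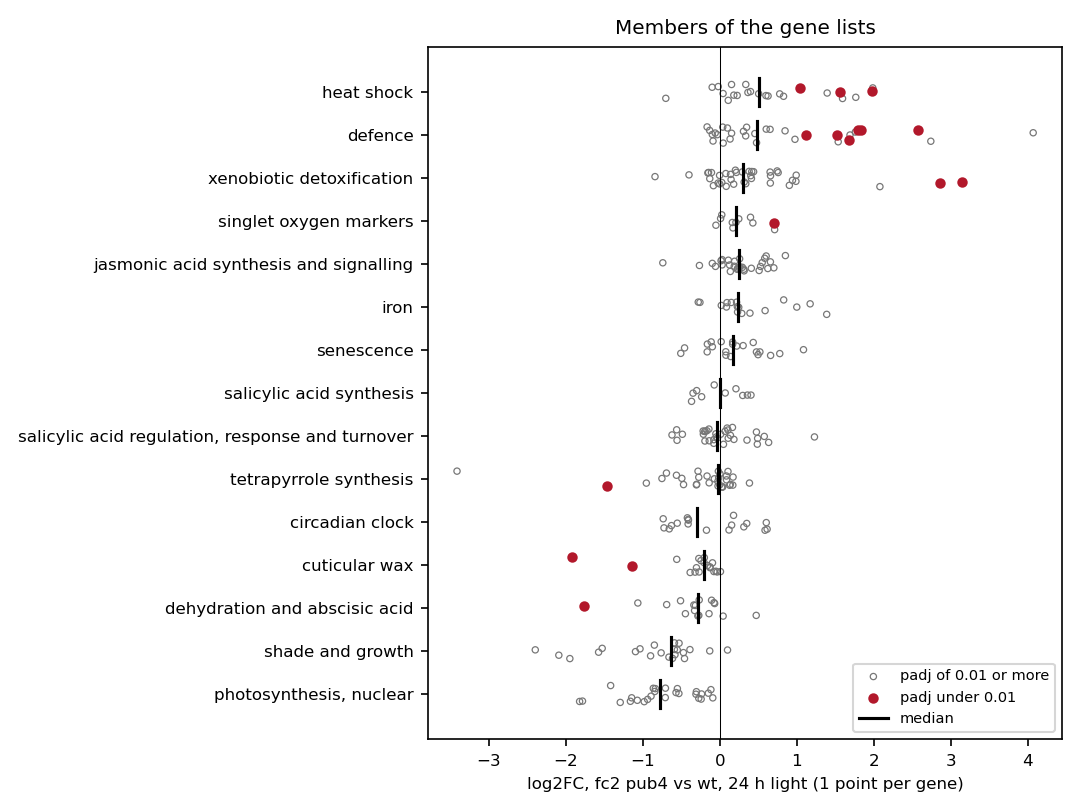
Log2FC of *fc2 pub4* against wt in 24 h light for the members of 15 gene lists, 1 point per gene, with the median of each list as a bar and genes at a padj under 0.01 in red. Heat shock and defence lie to the right of 0 (medians 0.50 and 0.48) and photosynthesis and shade genes to the left (−0.77 and −0.64), while the red points stay few in every list.

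Detoxification genes, whose enzymes attach sugar or glutathione to reactive compounds, gave 2 increases among 38 tested (9 with DESeq2), and 13 were higher and 2 lower at an unadjusted p under 0.05. The median log2FC was 0.30, and 0.14 without *fc2 pub4* replicate 2. *GSTF5*, a phi-class glutathione S-transferase, had 1.25, 1.39 and 1.25 CPM in *fc2 pub4* and 0.618, 0.165 and 0.408 CPM in *fc2*, against 0.13, 0.111 and 0.189 CPM in wt (log2FC 3.14, SE 0.37, padj = 0.00338). The wt levels of *GSTF5* rest on few reads, and its call passed in 1 of the 6 fits without a library (padj of up to 0.0263). *UGT73C1*, a UDP-glycosyltransferase, had 0.85, 1.54 and 1.06 CPM in *fc2 pub4* and 1.59, 1.42 and 2.36 CPM in *fc2*, against 0.13, 0.148 and 0.189 CPM in wt (log2FC 2.86, SE 0.43, padj = 0.00867), and the mutants overlapped. Its call was lost without any 1 of the 6 libraries (padj of up to 0.0486). *UGT74E2*, a glycosyltransferase induced by hydrogen peroxide, stood at 1.87, 4.87 and 4.16 CPM in *fc2 pub4* and 11.9, 5.11 and 6.03 CPM in *fc2*, against 0.812, 1.26 and 0.491 CPM in wt (padj = 0.0239). *GSTF6* and *GSTU10* came close to the threshold, at 142, 197 and 155 CPM in *fc2 pub4*, against 98.9, 107 and 107 CPM in wt (padj = 0.0133) and 9.21, 9.34 and 8.85 CPM in *fc2 pub4*, against 4.64, 5.52 and 6.05 CPM in wt (padj = 0.0132).

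Of the 11 singlet oxygen markers tested, 1 rose (1 with DESeq2 too). AT3G28580, an AAA-type ATPase known from the *flu* mutant as a specific early response gene, had 13.9, 15.4 and 12.6 CPM in *fc2 pub4* and 9.5, 7.59 and 7.4 CPM in *fc2*, against 8.89, 8.22 and 8.46 CPM in wt (log2FC 0.71, SE 0.11, padj = 0.00900). *BAP2*, an inhibitor of cell death, stood at 3.17, 6.08 and 4.48 CPM in *fc2 pub4*, against 2.24, 2.74 and 3.4 CPM in wt (padj = 0.145), with overlap. The call of AT3G28580 was lost without any 1 of the 6 libraries (padj of up to 0.0438). The list had 3 genes higher and 0 lower at an unadjusted p under 0.05 and a median log2FC of 0.21.

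Of 1198 transcription factors tested, 5 were higher and 3 lower at a padj under 0.01 (23 and 27 with DESeq2), and 2 of them passed an absolute log2FC of 1, as did 0.283% of all genes tested. These were *HSFA2* and *NTT*, a zinc finger factor of fruit development, which had 4.48, 4.56 and 4.43 CPM in *fc2 pub4* and 1.41, 1.35 and 1.57 CPM in *fc2*, against 1.4, 1.44 and 1.4 CPM in wt (log2FC 1.66, SE 0.16, padj = 0.00126). *WRKY15* and *WRKY60* rose by less, with log2FC of 0.67 (padj = 0.00101) and 0.62 (padj = 0.00354), as did the Dof factor AT2G28510 (0.82). *BBX17* (−0.64) and *RL4* (−0.49) fell beside *MYB16*. The calls of these 3 genes were lost with libraries scaled by size alone, and they passed in 1, 1 and 0 of the 6 fits without a library.

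Nuclear photosynthesis genes were lower in *fc2 pub4* in sign but not past the threshold. All 26 tested had a negative log2FC (median −0.77) and 22 had an unadjusted p under 0.05, but 0 had a padj under 0.01 with edgeR (8 lower with DESeq2). Of the 26, 14 lay below all wt libraries, against 12.7% of all genes tested. *LHB1B1*, of the photosystem II antenna, came closest with 384, 462 and 451 CPM in *fc2 pub4* and 1113, 726 and 974 CPM in *fc2*, against 868, 1297 and 2417 CPM in wt (log2FC −1.82, SE 0.30, padj = 0.0126). *LHCB2.3* had 140.2, 294 and 223 CPM in *fc2 pub4* and 599, 265 and 512 CPM in *fc2*, against 391, 717 and 1151 CPM in wt (log2FC −1.79, padj = 0.0253). *CAB2* stood at 582, 1456 and 1045 CPM in *fc2 pub4*, against 1253, 2422 and 4555 CPM in wt (padj = 0.0933). The replicates themselves were far apart, as wt replicate 3 held the highest and *fc2 pub4* replicate 1 the lowest level in each of these genes. Without wt replicate 3 the median log2FC was −0.52. *RBCS1A*, of the Rubisco small subunit, had a log2FC of −0.27 (padj = 0.159).

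The same libraries stood out in other genes that follow the day. The morning clock gene *CCA1* had 73.2, 136 and 105 CPM in *fc2 pub4* and 239, 108 and 189 CPM in *fc2*, against 105, 168 and 213 CPM in wt (padj = 0.198) and its partner *LNK2* had 148, 259 and 211 CPM in *fc2 pub4* and 501, 249 and 461 CPM in *fc2*, against 197, 313 and 519.8 CPM in wt (padj = 0.203). In both, *fc2 pub4* replicate 1 was lowest of the 6 and wt replicate 3 highest. The evening gene *TOC1* ran the other way with 133, 85.3 and 103 CPM in *fc2 pub4*, against 82.4, 69.2 and 58 CPM in wt (padj = 0.0603). The median log2FC was −0.49 for 8 morning genes and 0.24 for 10 day and evening genes, and none had a padj under 0.01 with edgeR (6 lower and 4 higher at an unadjusted p under 0.05, and 1 lower and 1 higher with DESeq2). The part of these differences in those of the photosynthesis genes was not tested.

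Chlorophyll synthesis draws on the same precursors as heme. None of 14 genes of the chlorophyll branch had a padj under 0.01 with edgeR (4 lower with DESeq2) and 8 were lower at an unadjusted p under 0.05 (median log2FC −0.23, and 0.08 in *fc2*). *CHLM*, the methyltransferase of magnesium protoporphyrin, stood at 261, 264 and 269.9 CPM in *fc2 pub4*, against 302, 328 and 348 CPM in wt (padj = 0.0417), and *GUN4*, an activator of magnesium chelatase, at 121, 160.1 and 137 CPM in *fc2 pub4*, against 166, 201 and 212 CPM in wt (padj = 0.0496). *PORA*, a protochlorophyllide reductase of young tissue, was scarce, at 0.312, 0.272 and 0.185 CPM in *fc2 pub4*, against 1.17, 1.15 and 6.01 CPM in wt (padj = 0.0290), with wt replicate 3 again highest. *HEMA1*, which sets the flow into the pathway, had 240.2, 331 and 259.5 CPM in *fc2 pub4*, against 344, 494 and 559 CPM in wt (padj = 0.0381), and *HY2*, of bilin synthesis, 25.9, 23.3 and 23.7 CPM in *fc2 pub4*, against 17.1, 19.4 and 19.3 CPM in wt (padj = 0.0316). The 11 genes of the common trunk had a median log2FC of 0.00, and *FC2* was the 1 gene of 32 in the pathway past the threshold (1 higher and 5 lower with DESeq2).

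Of 22 shade and growth genes, which respond to phytochrome and auxin, 21 had a negative log2FC (median −0.64), 13 were lower at an unadjusted p under 0.05 and 0 had a padj under 0.01 with edgeR (5 lower with DESeq2). *IAA29* had 1.5, 0.302 and 1.19 CPM in *fc2 pub4*, against 3.64, 3.52 and 8.88 CPM in wt (padj = 0.0277) and *SAUR22* 0.907, 0.544 and 0.848 CPM in *fc2 pub4*, against 1.79, 2.26 and 2.65 CPM in wt (padj = 0.0195). Neither gene overlapped between the genotypes. Of the 22 genes, 11 lay below all wt libraries, against 12.7% of all genes tested. Without wt replicate 3 the median was −0.42.

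**Figure D3:**
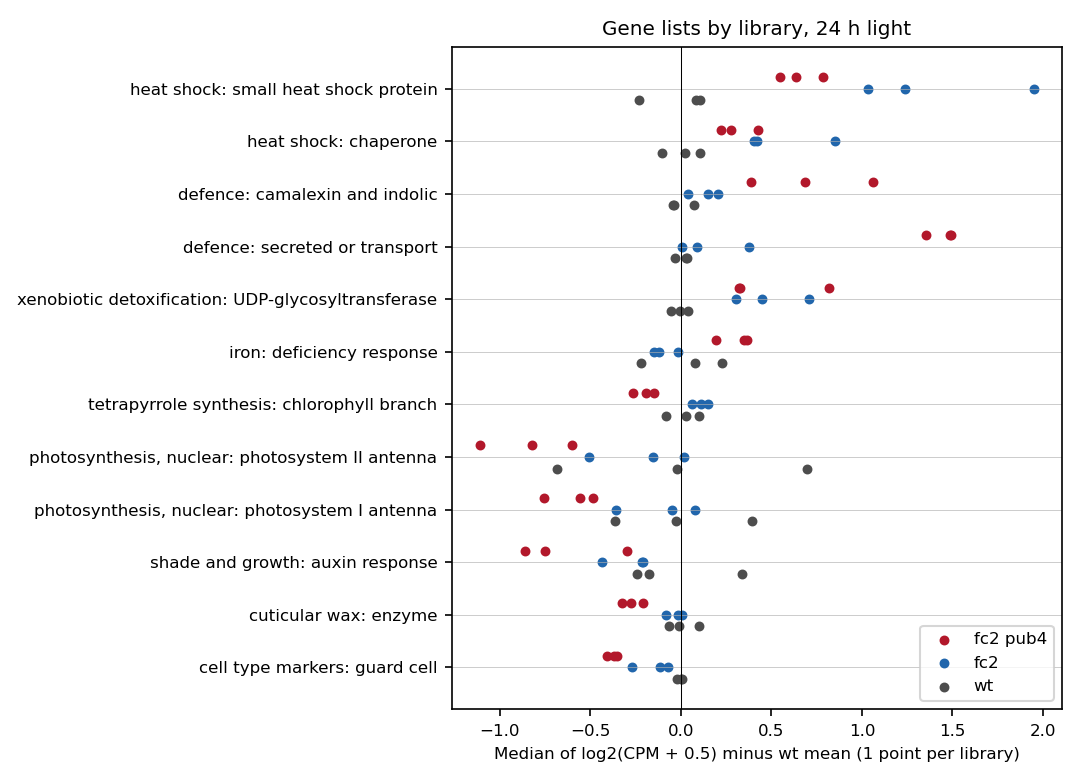
Median over the genes of each group of log2(CPM + 0.5) minus the wt mean, 1 point per library, with *fc2 pub4* above *fc2* above wt in each row. The medians of small heat shock proteins lie higher in *fc2* than in *fc2 pub4*, although no gene of that group passed the threshold between them. The transport and secretion genes of the defence list are high in *fc2 pub4* alone. They include genes that the study had picked from these libraries, so this is not independent evidence. The antenna genes spread widely within wt.

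No gene of the salicylic acid and jasmonic acid lists passed the threshold with edgeR against wt. None of 10 genes of salicylic acid synthesis and none of 33 of its regulation, response and turnover had a padj under 0.01 with edgeR, and at an unadjusted p under 0.05 they had 2 higher and 0 lower, and 6 higher and 6 lower. DESeq2 called 0 of the 10, and 2 of the 33 higher and 1 lower. Set against *fc2* with edgeR at a padj under 0.01, 1 of the 10 was higher and 0 lower, and 2 of the 33 were higher and 1 lower. Of all 19851 genes tested there, 0.897% were higher and 0.589% lower. The median log2FC of the 2 lists against *fc2* was 0.11 and 0.31, and that of *fc2* against wt was −0.11 and −0.23. *EDS5*, the exporter of the isochorismate route, stood at 29.3, 39.8 and 26.47 CPM in *fc2 pub4* and 18.7, 19 and 17.2 CPM in *fc2*, against 24.3, 23.2 and 24.6 CPM in wt (padj = 0.120). *PR1*, a classic output, stood at 320.4, 292 and 273 CPM in *fc2 pub4*, against 223, 225 and 122 CPM in wt (padj = 0.0943), while *PR5* stood at 197, 226 and 196 CPM in *fc2 pub4*, against 388, 384 and 179.7 CPM in wt (padj = 0.167) and *PCC1* at 379.7, 276 and 317 CPM in *fc2 pub4*, against 482, 483 and 468 CPM in wt (padj = 0.0201). Outputs thus lay on both sides of wt. The regulator *WRKY28* had the lowest padj of those above wt, with 2.81, 2.39 and 2.2 CPM in *fc2 pub4*, against 0.974, 0.926 and 1.25 CPM in wt (padj = 0.0204).

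For jasmonic acid 26 of 30 genes had a positive log2FC (median 0.25, and −0.08 in *fc2*), with 7 higher and 1 lower at an unadjusted p under 0.05 and 0 at a padj under 0.01 with edgeR (3 higher with DESeq2). *OPR3*, a reductase of its synthesis, had 60.01, 61 and 63.7 CPM in *fc2 pub4* and 40.5, 48.5 and 30.6 CPM in *fc2*, against 48.9, 45.5 and 44.5 CPM in wt (padj = 0.0105), and *LOX2*, a lipoxygenase of the same route, 1533, 1264 and 1569 CPM in *fc2 pub4* and 1022, 1436 and 841 CPM in *fc2*, against 905, 1046 and 814 CPM in wt (padj = 0.0158). In both genes the *fc2 pub4* libraries lay above all wt libraries, as in 6 of the 30 genes and in 13.0% of all genes tested. The senescence list had 6 of 21 genes higher and 1 lower at an unadjusted p under 0.05 (0 at a padj under 0.01 with edgeR and 3 higher with DESeq2), with *WRKY53*, a regulator of leaf ageing, at 20.03, 24.7 and 20.6 CPM in *fc2 pub4*, against 15.9, 15.6 and 14 CPM in wt (padj = 0.0231). Of 64 putative microautophagy genes, 0 had a padj under 0.01 with edgeR or DESeq2, 2 were higher and 4 lower at an unadjusted p under 0.05, and the median log2FC was −0.05.

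All 13 iron deficiency genes had a positive log2FC (median 0.28), 9 of them at an unadjusted p under 0.05 and 0 at a padj under 0.01 with edgeR or DESeq2. *BHLH100*, a factor induced when iron is short, had 11.1, 7.89 and 7.39 CPM in *fc2 pub4* and 5.06, 3.1 and 2.24 CPM in *fc2*, against 5.62, 5.37 and 2.12 CPM in wt (padj = 0.0913), and *FRO3*, a mitochondrial ferric reductase, 57.1, 61.4 and 58 CPM in *fc2 pub4*, against 46.7, 49.9 and 47.9 CPM in wt (padj = 0.0337). Against *fc2* 2 of the 13 were higher at a padj under 0.01, *BTS* (log2FC 0.43) and *OPT3* (log2FC 0.42), where 0.897% of all 19851 genes tested were higher and 0.589% lower. The 4 ferritin genes, which store iron, had a median log2FC of −0.12.

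Some genes of plastid gene expression rose slightly, and these were picked after their values were seen. *PTAC3*, *PTAC12* and *PTAC14*, proteins of the plastid transcription complex, had log2FC of 0.52, 0.48 and 0.49, and *SCA3*, the plastid phage-type RNA polymerase, 0.52. All 4 had a padj under 0.01, between 0.00359 and 0.00774. Of 62 plastid-encoded loci tested, 1 rose (7 with DESeq2), *rpoB* (ATCG00190, log2FC 0.64), and 28 were higher and 1 lower at an unadjusted p under 0.05. The median log2FC of the 62 loci was 0.61 in *fc2 pub4*, and that of the 59 of them tested in *fc2* was 0.72 there. The libraries were selected for poly(A) RNA, which holds only a small part of plastid transcripts, and the summed plastid CPM were 244 to 307 in *fc2 pub4* and 180.2 to 222 in wt.

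Of 29 cell type markers tested, 0 rose and 1 fell (0 and 5 with DESeq2), and 16 were lower and 0 higher at an unadjusted p under 0.05. In bulk leaf RNA, fewer cells of a type and less RNA per cell cannot be told apart. *SUC2*, the sucrose transporter of phloem companion cells, fell, with 124, 118 and 121 CPM in *fc2 pub4* and 178, 188 and 166 CPM in *fc2*, against 172, 187 and 192 CPM in wt (log2FC −0.61, SE 0.06, padj = 0.00182), and the other phloem markers *APL* and *SEOR1* also lay below all wt libraries (padj = 0.136 and 0.104). The guard cell group (*FAMA*, *MYB60*, *KAT1*, *HT1*, *SPCH* and *TMM*) spans the stomatal lineage and not mature guard cells alone. All 6 of its markers lay below all wt libraries (median log2FC −0.41), as did 12.7% of all genes tested. The 6 summed to 70.8 to 74.5 CPM in *fc2 pub4* and 94.1 to 101 CPM in wt. None passed a padj of 0.01 with edgeR (5 lower at an unadjusted p under 0.05 and 2 with DESeq2), and *KAT1*, a guard cell potassium channel, came closest (log2FC −0.60, padj = 0.0108). The 4 epidermis markers summed to 233 to 249 CPM in *fc2 pub4* and 277 to 305 CPM in wt. These markers lay below wt together with the wax genes and *ABCG22*, a transporter that affects water loss from stomata (log2FC −0.77, padj = 0.00119), and their part in those results was not tested. Flower markers were low in both genotypes, at a sum of 7.68 to 9.72 CPM in *fc2 pub4* and 5.04 to 9.56 CPM in wt.

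The same contrast in cycling light used 6 other libraries and so gives an independent reading of the genes. Of the 21 upregulated DEGs, 20 were tested there, all 20 had a positive log2FC and 18 had a padj under 0.01, where 6.32% of 19658 genes were higher. All 11 downregulated DEGs fell, where 8.02% of all genes were lower. Over the larger set, 66 of 80 higher genes and 61 of 70 lower genes passed in the same direction and none passed in the opposite one. *CER4* had a log2FC of −3.56 in cycling light and −1.93 in 24 h light, and *CER1* of −1.5 and −0.56. The values of *RLP21* (log2FC 2.93) and AT3G49560 (−2.33) were close to those in 24 h light. The heat shock list had 9 of 23 genes higher and 0 lower in cycling light (median 0.49), and the detoxification list 13 of 38 higher and 2 lower (median 0.45). Within these lists *UGT73C1* had a log2FC of 0.83 (padj = 0.140) and *HSP90.1* of 0.06 (padj = 0.815). The defence list had 18 of 30 genes higher and 0 lower in cycling light (median 0.83), and the photosynthesis list 22 of 26 lower and 0 higher (median −0.33). The medians of the shade, jasmonic acid and iron deficiency genes were 0.00, 0.09 and −0.13 in cycling light.

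**Figure D4:**
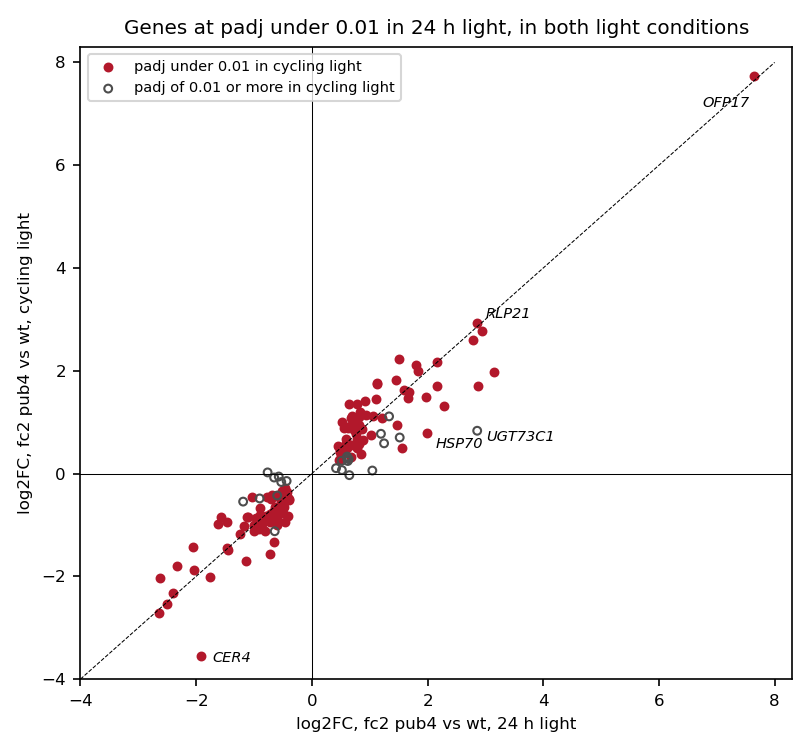
Log2FC of *fc2 pub4* against wt in 24 h light (x axis) and in cycling light (y axis) for the 150 genes at a padj under 0.01 in 24 h light that were tested in both, 1 point per gene, filled where padj was also under 0.01 in cycling light. Nearly all points lie in the lower left and upper right quadrants near the dashed line of equal change, with *CER4* below it and *UGT73C1* and *HSP70* closer to 0 in cycling light.

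Whether the difference from wt itself changed with light was tested as an interaction over the 12 libraries, and 50 of 20185 genes (0.248%) had a padj under 0.01. Of the 32 DEGs this held for 1, *UBA2A*, and of the 151 genes for 2, *UBA2A* and *ABCG22*. As the 24 h libraries enter both tests, these counts are not separate evidence. The interaction of *UGT73C1* had a padj of 0.0840 and that of *CER4* of 0.0446, so a difference between light conditions was not shown for either.

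Set directly against *fc2* in 24 h light, *fc2 pub4* had 178 genes higher (0.897%) and 117 lower (0.589%) at a padj under 0.01. This comparison shares the *fc2 pub4* libraries with that against wt, so the values are given side by side. AT3G49560 had the lowest padj (3.54e-08), with a log2FC of −2.55 against *fc2* and −2.41 against wt. Among higher genes *RLP21* shared the lowest padj (5.68e-04), with log2FC of 2.38 and 2.86. The defence list had 5 higher and 0 lower against *fc2* (median 0.47). Of these, 4 are genes for secreted proteins and transport, some of which the study had picked from these libraries, so their direction is not independent evidence. The heat shock list had 0 in either direction (median −0.22). *HSFA2* had a log2FC of −0.73 against *fc2* (padj = 0.0326) and 1.56 against wt. The 8 flower markers tested had a median log2FC of −1.93 against *fc2* and 0.25 against wt, and their part in the comparison with *fc2* was not tested.

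Both mutated genes lie on chromosome 2, 3.11 Mb apart, with *PUB4* at chr2:9845410-9849379. Of the genes tested on chromosome 2, 36 of 2970 (1.21%) had a padj under 0.01, against 0.590 to 0.936% on the other chromosomes. Within 2 Mb of *PUB4* or *FC2* it was 23 of 1310 (1.76%), and 128 of 18472 (0.693%) among all other genes. These windows hold 5 DEGs, *OFP17*, *RLP21*, *HSFA2*, *MES8* and AT2G32340, and 27 DEGs lie among all other genes. The factors *WRKY15*, *WRKY60* and AT2G28510, which rose by less, also lie within the windows. AT3G49560, *UBA2A*, *NTT* and the group on chromosome 4 do not. Why the share is higher there was not tested.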

How the data were processed

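The series holds RNA-seq libraries of leaves of 3 genotypes in 2 light conditions, and 6 of its 18 libraries enter the main comparison. RNA was extracted from pooled leaves, selected for poly(A), made into stranded libraries and sequenced as single-end reads of 50 bases. The authors deposited a table of whole-number read counts for 33602 loci, not normalized. Per the study's methods and the submitters' processing notes, reads were aligned to TAIR10 with HISAT2 2.1.0 and processed with StringTie 1.3.4 in the RMTA workflow. How strand, overlapping genes and reads with several matches were treated in counting is not given in the sources used here.

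Counts were tested with edgeR 4.0.16 (R 4.3.3): filterByExpr, TMM scaling, the quasi-likelihood F-test on the 6 libraries with genotype as the only term, and Benjamini-Hochberg adjustment over all genes tested. Genes past an absolute log2FC of 1.5 and a padj under 0.01 were called DEGs, as in the study. Lists were read at a padj under 0.01 and at an unadjusted p under 0.05, and transcription factors at an absolute log2FC above 1. The comparison with *fc2*, that in cycling light and the interaction were fitted likewise on their own libraries. CPM were computed on TMM library sizes over 18 libraries. DESeq2 1.42.0 and the other alternatives are given in the closing section. The code was tested on simulated data.

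Of the loci in the table, 32835 matched the RefSeq annotation of TAIR10.1, which gave positions, promoters and products. Repeats and overlapping exons were checked for named genes with 50-base stretches. Genes were named by rule: *FC2*, *PUB4* and *OFP17*, all genes past the study's cutoffs (the largest or best known in full), list members at a padj under 0.01, defining members of lists, and the gene with the lowest padj in each direction against *fc2*. *Hop3*, *ABCG22* and the plastid gene expression genes were named after their values were seen. The members and lists were chosen with earlier results of these data known. Replicates are separate pools of 3 plants. The paper's methods give the plants' age as a day less than the labels, and the labels' value is printed.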

Additional observations from a re-analysis of the deposited data

Results flagged for a closer look

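For 4 named genes the difference between *fc2 pub4* and wt itself differed between light conditions, in the edgeR interaction test over 12 libraries with Benjamini-Hochberg adjustment. The value is the log2FC in 24 h light minus that in cycling light. *BEE1*, a basic helix-loop-helix factor of brassinosteroid growth responses, had −1.57 (SE 0.21, padj = 0.00295), with a log2FC of −0.46 in 24 h light (padj = 0.156) and 1.12 in cycling light. *GSTF2*, a glutathione S-transferase, had −0.98 (SE 0.15, padj = 0.00526), with 0.14 in 24 h light (padj = 0.556) and 1.12 in cycling light. *ABCG22* had −0.79 (SE 0.09, padj = 0.00223), as it fell in 24 h light (log2FC −0.77, padj = 0.00119) and stood at 0.02 in cycling light (padj = 0.779). *UBA2A* had −0.63 (SE 0.09, padj = 0.00452) and was lower in both, by 1.62 in 24 h light and 0.98 in cycling light on the log2 scale.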

How the results depend on the processing

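The counts of calls depended on the test and its filters more than the values did. The 32 DEGs became 53 with no filter on low counts, 74 with DESeq2, 61 with all 18 libraries in one fit and 82 at a padj under 0.05, and 12 to 24 with a library left out. The 151 genes at a padj under 0.01 became 232 with libraries scaled by size alone, 359 with no filter, 882 with DESeq2, 481 in one fit of 18 libraries and 922 at a padj under 0.05. With a library left out they were 17 (*fc2 pub4* replicate 3), 36 and 57 (wt replicates 2 and 1), 70 and 97 (*fc2 pub4* replicates 1 and 2) and 105 (wt replicate 3). The 295 genes against *fc2* became 533, 1085, 483 and 1185 with no filter, DESeq2, one fit and a padj under 0.05, and 46 and 132 without *fc2 pub4* replicates 3 and 1, 79 and 112 without *fc2* replicates 3 and 1, and 200 to 307 without the others. The 50 interactions became 163 with no filter, 414 with DESeq2 and 422 at a padj under 0.05, and with a library left out 2, 24 and 104 (*fc2 pub4* 24 h replicates 3, 1 and 2), 134, 18 and 11 (*fc2 pub4* cycling replicates 2, 1 and 3), 17, 10 and 20 (wt cycling replicates 1, 2 and 3) and 35 to 54 (wt 24 h). The causes were not tested, and with a library left out fewer samples enter the fit. Each of the 4 counts stayed within 1.5 times with the size factors of DESeq2, a minimum of 10 counts in every library and the organelle loci removed. Replicate numbers were not taken as pairs, because deviations of same-numbered *fc2 pub4* and wt libraries correlated at 0.135, 0.132 and 0.053, and with *fc2* at −0.217, −0.231 and 0.055, although each *fc2 pub4* library correlated best with the wt library of its own number, a hint from the data and not the design. With the replicate number as a block the DEGs were 51, the genes at a padj under 0.01 were 385, those against *fc2* 77 and the interactions 42. No value turned round. Of 44 single genes followed, 10 passed under every alternative, among them *FC2*, *OFP17*, *RLP21*, AT3G49560, *UBA2A* and *PTR3*, and 41 under every alternative that kept all libraries. *BBX17*, *RL4* and *MYB16* were lost with libraries scaled by size alone, and *BBX17* also in the fit of 18 libraries (padj = 0.038). *UGT73C1*, *NLM1*, AT5G26270, AT5G28335, AT5G47590, AT3G28580 and *MYB16* were lost with any 1 library left out. Depth limits the genes near 1 CPM, such as *NLM1*, whose wt libraries held few reads.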
